A study of Mus musculus with 8 samples.

Results

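Brown adipose tissue (BAT) burns fuel to make heat, and it also releases signalling proteins, often called batokines, that reach blood vessels, nerves, liver and neighbouring fat cells. The loci of 10 genes for such secreted factors were examined in a genome-wide list of ATAC-seq peak summits from mouse BAT: Fgf21, Fgf9, Bmp8b, Gdf15, Nrg4, Vegfa, Il6, Angptl8, Igf1 and Slit2. A locus was the gene body plus 50 kb on each side of every transcription start site (TSS) of a curated RefSeq mRNA. Of the 32173 peak summits in the list, 97 fell in these loci, and the 10 genes are 10 of the 21000 genes with such an mRNA.

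The study asked what loss of the histone methyltransferase Dot1L does to chromatin accessibility and gene expression in BAT. ATAC-seq was done on BAT nuclei of 2 WT mice, which were Dot1l f/f littermates, and of 2 Dot1L-BKO mice, in which Ucp1-Cre deletes the floxed Dot1l in Ucp1+ cells, so that other cells of the tissue keep the gene. All were 12 weeks old, ate chow and spent 4 hr at 4°C before the tissue was taken, and no group without cold is analysed here. In ATAC-seq the Tn5 transposase cuts and tags DNA that is not wrapped in nucleosomes, and a peak summit marks the point where tagged fragments pile up most.

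The values are the authors' single list of MACS2 summits, in which the WT libraries are named against the Dot1L-BKO libraries. Each summit has a score, the −log10 of its q-value, so that a higher score is a peak that stands out more clearly from whatever MACS2 compared it with. The list gives no value for any single library and does not say which libraries served as treatment and which as control. If one genotype was the control, a score measures an excess of reads over that genotype, and a locus without a summit is one without such an excess. If the libraries were pooled, a score measures accessibility over the local background. These readings cannot be told apart here, and a summit is used below only as an entry of the list. The loci could therefore not be compared between WT and Dot1L-BKO, read depth is unknown, and no replicate error exists for any value. All counts, shares and scores below describe that list. The nuclei came from whole tissue, in which fewer cells of a type and less open chromatin per cell cannot be told apart. Scores over the whole list ran from 1.31 to 13426.1 with a median of 5.0. Many summits shared a score. The value 3.32, which recurs at several of the loci, stood at 1349 summits of the list and at 10 of the 97.

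The list was set beside marker genes of the labelled tissue, which checks the label only if a summit stands for accessibility. A promoter summit, within 1 kb of a TSS, was listed for 12 of 14 brown adipocyte markers, Zic1 and Lhx8 being the exceptions (85.7%, beside 45.2% of all 21000 genes). Among the 12 are Pparg and Adipoq, which the study uses as markers of adipogenesis in general. The markers were chosen with earlier results of these data known. The same promoter count was made for markers of other cell types. A promoter summit was listed for 2 of 7 endothelial, 2 of 7 macrophage and leukocyte, 2 of 6 progenitor and mural, 1 of 6 skeletal muscle, 1 of 5 hepatocyte and 0 of 5 neuron markers. The muscle marker was Actn3, and its promoter summit was nearest to the TSS of another gene. Ucp1, the uncoupling protein that makes heat, had 12 locus summits and a promoter score of 33.7. The share of all genes lies inside the Wilson intervals of the other cell types except that of the neuron markers, which ends at 43.4% (0 of 5, a count that allows up to 60%). The part of such cells in the member loci was not tested.

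The factors belong to different signalling families. FGF21 and FGF9 are fibroblast growth factors, and FGF21 acts as a hormone through FGFR1 with the co-receptor beta-Klotho. BMP8B and GDF15 belong to the TGF-beta superfamily, NRG4 is an EGF-like ligand of ERBB receptors, and VEGFA drives the growth of blood vessels. IL6 is a cytokine, IGF1 a growth factor of the insulin family, SLIT2 a guidance protein that binds ROBO receptors, and ANGPTL8 acts with related proteins such as ANGPTL4 on lipoprotein lipase. Cold and beta-adrenergic signalling are known to raise several of them in brown fat.

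The DNA under 7 summits is printed here because these summits carry the values that set the loci apart: the best-scoring promoter summits (Vegfa, Angptl8, Nrg4), the summit inside Fgf21, the pair that flanks the Gdf15 TSS, and the intronic Bmp8b summit. The sequences are from the forward strand of the RefSeq GRCm38 (mm10) genome, 5′ to 3′, centred on the summit. Capitals mark letters that match a searched motif on either strand, and a match is a description of letters, not a bound site.
Vegfa -254 bp, chr17:46032531-46032731: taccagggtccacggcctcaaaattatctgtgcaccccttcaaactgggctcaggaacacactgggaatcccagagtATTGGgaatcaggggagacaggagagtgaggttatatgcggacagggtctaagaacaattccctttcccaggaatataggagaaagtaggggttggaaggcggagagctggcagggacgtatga
Angptl8 -71 bp, chr9:21835389-21835489: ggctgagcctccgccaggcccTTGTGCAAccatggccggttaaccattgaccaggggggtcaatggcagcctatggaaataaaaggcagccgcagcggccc
Nrg4 -181 bp, chr9:55283706-55283906: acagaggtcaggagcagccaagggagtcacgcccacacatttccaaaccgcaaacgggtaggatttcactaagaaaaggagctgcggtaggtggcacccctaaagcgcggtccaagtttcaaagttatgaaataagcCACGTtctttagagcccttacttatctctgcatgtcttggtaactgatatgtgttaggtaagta
Fgf21 +890 bp, chr7:45614500-45614700: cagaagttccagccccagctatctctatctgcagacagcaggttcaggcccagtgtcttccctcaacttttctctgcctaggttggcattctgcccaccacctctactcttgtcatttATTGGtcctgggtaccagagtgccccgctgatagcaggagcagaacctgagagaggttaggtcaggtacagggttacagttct
Gdf15 -1847 bp, chr8:70634203-70634403: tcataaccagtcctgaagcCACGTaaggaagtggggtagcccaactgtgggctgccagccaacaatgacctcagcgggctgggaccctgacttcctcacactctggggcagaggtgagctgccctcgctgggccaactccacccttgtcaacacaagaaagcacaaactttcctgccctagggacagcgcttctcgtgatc
Gdf15 +1886 bp, chr8:70630109-70630309: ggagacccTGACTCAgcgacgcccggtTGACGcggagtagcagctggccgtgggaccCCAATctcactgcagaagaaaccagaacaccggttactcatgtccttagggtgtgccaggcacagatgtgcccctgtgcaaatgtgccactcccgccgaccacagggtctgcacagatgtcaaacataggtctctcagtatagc
Bmp8b +1936 bp, chr4:123106997-123107197: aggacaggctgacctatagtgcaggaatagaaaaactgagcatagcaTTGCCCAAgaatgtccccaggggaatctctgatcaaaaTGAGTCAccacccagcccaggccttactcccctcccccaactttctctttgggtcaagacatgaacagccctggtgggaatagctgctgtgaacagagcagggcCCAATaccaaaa
In the Vegfa and Fgf21 windows the capitals are CCAAT read on the other strand, and in Nrg4 and Gdf15 -1847 bp they are ACGTG, the core of the hypoxia response element (HRE), read the same way. The Angptl8 window, cut short to 50 bp on each side so as to end before the TSS, holds the C/EBP letters TTGCNNAA. Gdf15 +1886 bp holds AP-1 letters (TGANTCA), the CRE half-site TGACG and CCAAT, and Bmp8b +1936 bp holds C/EBP letters, AP-1 letters and CCAAT.

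Of the 10 genes, 6 had a promoter summit: Vegfa, Angptl8, Nrg4, Fgf21, Il6 and Fgf9. That is 60% (95% Wilson interval 31.3% to 83.2%; such intervals cover counting error only), beside 45.2% of all genes. At least 1 summit anywhere in the locus was listed for 9 of 10, all but Slit2, beside 72.5% of all genes. Promoter summits scoring 10 or more were listed for 2 of 10, Vegfa and Angptl8, beside 23.5% of all genes. The interval for 10 genes is wide enough to hold the share of all genes. Several of these calls rest on the window or on weak summits. Fgf21 and Fgf9 had no summit within 500 bp of a TSS, Fgf21 and Il6 had none from 1 kb upstream to 100 bp downstream, and the promoter summits of Fgf21, Il6 and Fgf9 all scored below 5. The median promoter score of the 6 members was 6.70, and that of all genes with a promoter summit was 10.7.

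**Figure D1:**
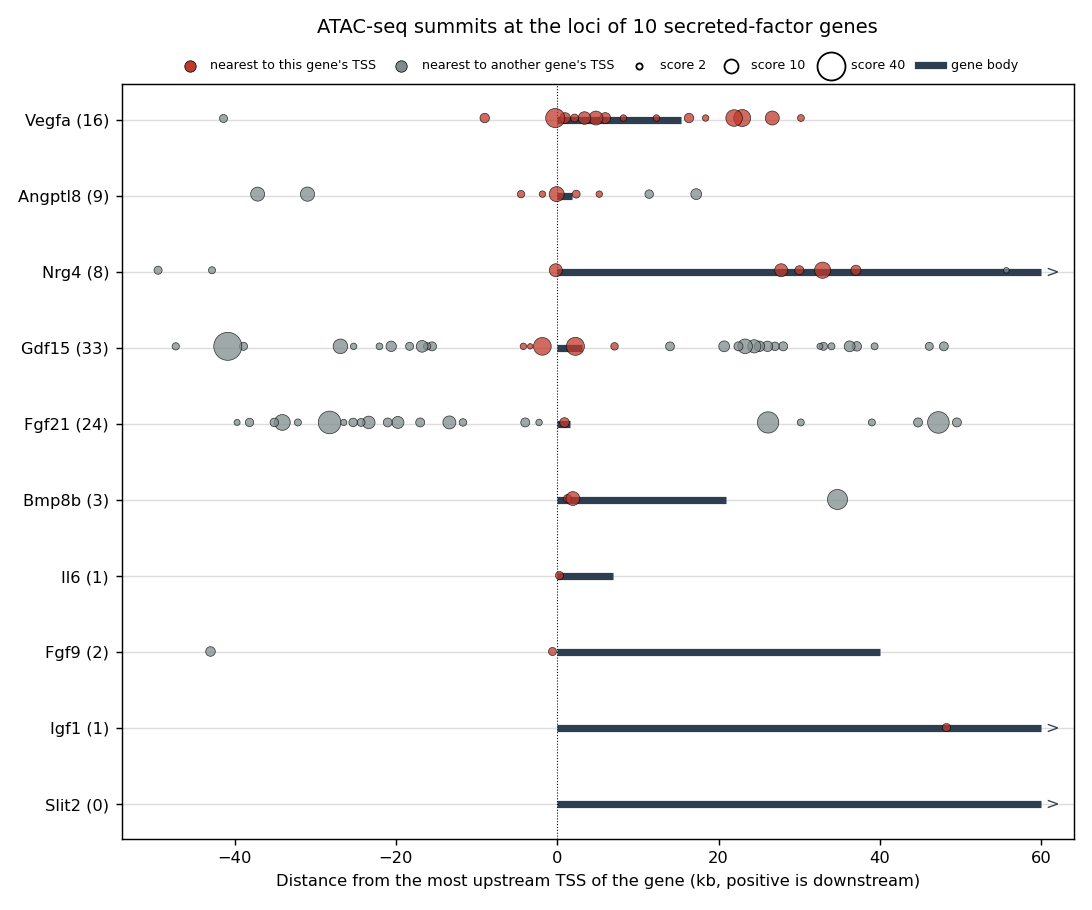
Positions of the 97 summits at the 10 loci, in kb from the most upstream TSS of each gene, with the number of summits in brackets. Circle area grows with the score, red circles are summits whose nearest TSS is that of the gene itself, grey circles are nearest to another gene, and bars are gene bodies (an arrow marks a body that runs past 60 kb). Vegfa has the densest run of its own summits, while at Fgf21 and Gdf15 most summits are nearest to a neighbour.

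The number of summits per locus ranged from 0 at Slit2 to 33 at Gdf15. Gdf15 and Fgf21 together held 57 of the 97 summits (58.8%). Only 36 of the 97 had a member TSS as their nearest TSS, and the other 61 lay nearest to a neighbour gene. A summit nearest to its own TSS was present at 9 of the 10 genes, beside 54.5% of all genes. The median locus of a member held 5.5 summits and that of all genes 2. Gdf15 and Fgf21 each share their locus with 5 other genes, so each locus is set below beside genes with the same number of neighbours.

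**Figure D2:**
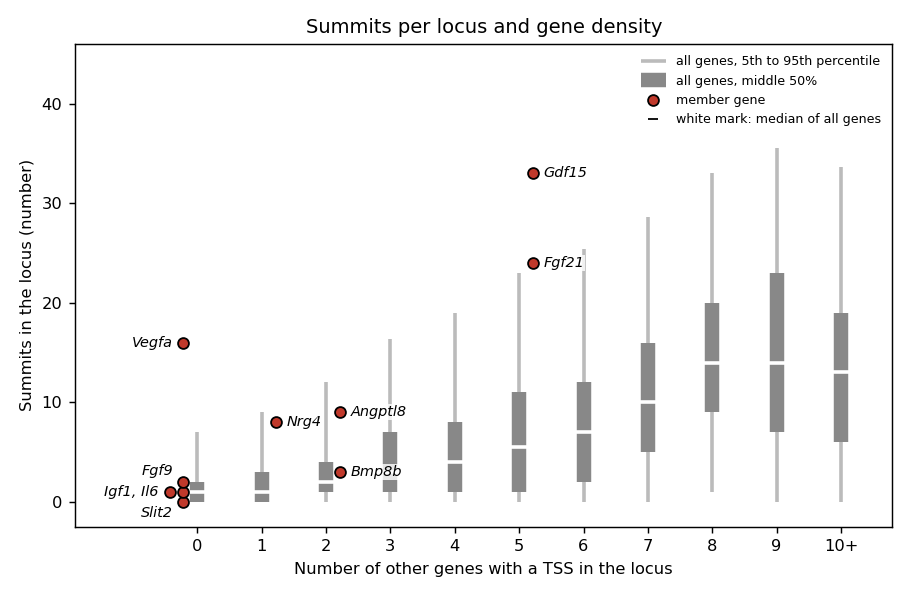
Summits per locus (vertical axis, number) by how many other genes have a TSS in the locus (horizontal axis, number), with thick bars for the middle 50% of all genes, thin lines for the 5th to 95th percentile, white marks for the median and red points for the 10 genes. Vegfa (16), Gdf15 (33) and Fgf21 (24) lie above the thin line of their class, and the other 7 lie within it.

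Vegfa had the most summits of its own. The gene (chr17:46016993-46032377, minus strand) has 2 curated TSSs and no other gene starts within its locus, yet the locus held 16 summits, of which 15 were nearest to Vegfa. Of the 5791 genes with no other gene in the locus, which had a median of 1 summit, 1.11% had as many. The summits crowded around the gene, with 10 within 10 kb of a TSS, a number reached by 0.748% of all genes, and 14 within 20 kb.

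The promoter summit of Vegfa, at -254 bp, scored 18.8, the highest of the 36 summits nearest to a member TSS, and 29.3% of genes with a promoter summit scored as high. Another 2 summits lay within 1 kb of a TSS, with 5.87 at +977 bp in exon 1 and 2.15 in an intron at +988 bp of the downstream TSS. Farther into the gene the scores were 3.20 at +2146 bp, 8.12 at +3382 bp, 9.93 at -2421 bp, 6.02 at -1267 bp and 2.15 at +5079 bp, each measured from the nearer of the TSSs. Past the 3′ end lay a run of 6 summits between +9120 bp and +22994 bp. Among these, the summits at +14710 bp, +15714 bp and +19443 bp scored 14.0, 14.8 and 9.99, and the other 3 scored from 2.15 to 4.56. Upstream of the promoter there were only a summit of 4.61 at -8993 bp and one of 3.32 at -41458 bp, the latter nearest to Mrps18a. The summits listed at Vegfa thus lay mostly in and downstream of the gene. Among the VEGFA receptors, Kdr, the main receptor on endothelium, had no locus summit, Flt1 had a promoter score of 5.55, and the co-receptors Nrp1 and Nrp2 had 2.53 and 8.65.

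Gdf15 (chr8:70629393-70632456, minus strand), the stress hormone read by GFRAL in the hindbrain, had 33 summits in its locus, the most of the 10, and only 5 were nearest to it. In all, 0.638% of genes had as many. Of the 1152 genes that also share their locus with 5 others, 1.13% did. Of the rest, 8 each were nearest to Isyna1, Ssbp4 and Pgpep1, 3 to Lsm4 and 1 to Lrrc25. The highest score of all 97 summits, 40.1, lay at +73 bp of the Lsm4 TSS in its first exon, and Ssbp4 and Pgpep1 each reached 10.9.

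No summit of Gdf15 lay within 1 kb of its TSSs, but a pair stood just beyond. The summit at +1886 bp in the intron scored 16.7 and that at -1847 bp scored 16.1, below only the Vegfa promoter among the 36 summits nearest to a member TSS. The remaining 3 were weak, with 1.54 at -3357 bp, 2.18 at -4201 bp and 2.92 at +6738 bp. A count at promoters alone would therefore place Gdf15 with the genes without a summit. Its receptor Gfral had no locus summit, and the co-receptor Ret had 1, which was nearest to another gene.

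Fgf21 (chr7:45613890-45615490, minus strand) showed a still larger gap between its locus and the gene itself. The locus held 24 summits, a number that 1.87% of all genes and 4.69% of genes with 5 others in the locus reached, but a single one was nearest to Fgf21. This summit, in an intron at +890 bp, scored 4.75, and 80.4% of genes with a promoter summit scored as high. Mamstr had 10 of the others with scores up to 26.1, Bcat2, a mitochondrial enzyme of branched-chain amino acid breakdown, had 6 with scores up to 23.8, and Rasip1 had 3, Fut1 2 and Fut2 2. The closest neighbour summit, at -2257 bp in the first exon of Fut1, scored 2.15. Of the receptor pair, Fgfr1 had a promoter score of 9.21. Klb, which encodes beta-Klotho, had 8 locus summits, 3 of them nearest to it, and none at the promoter.

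Fgf9 (chr14:58072686-58112720, plus strand), a paracrine member of the same family, had 2 summits and no other gene in its locus. The promoter summit at -671 bp scored 3.32. The other, at -43024 bp and nearest to Micu2, scored 4.75. Both scores are below the median of the list, and 31.7% of genes with no other gene in the locus had as many summits.

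Angptl8 (chr9:21835510-21837347, plus strand) lies within an intron of Dock6, which runs on the opposite strand, so that a summit there cannot be given to one gene by position alone. Of 9 locus summits, 5 were nearest to Angptl8. The promoter summit at -71 bp scored 11.5, and 46.7% of genes with a promoter summit scored as high. The scores fell off on both sides, with 2.15 at -1837 bp, 2.84 at -4490 bp, 3.20 at +2347 bp and 2.15 at +5209 bp. The others were nearest to Dock6, with 3.75 and 6.04, and to Kank2, with 10.01 and 10.4. Of genes with 2 others in the locus, 9.63% had as many summits. Among the partners, Lpl, which encodes lipoprotein lipase, had 23 locus summits and a promoter score of 23.1, and Angptl4 had 16 and 13.4. Of these locus summits, 19 were nearest to Lpl itself and 6 to Angptl4 itself.

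Nrg4 (chr9:55220222-55283625, minus strand) had 8 summits, 5 of them nearest to it. Its promoter summit at -181 bp scored 8.65, and 59.99% of genes with a promoter summit scored as high. Within the long gene body a cluster of 4 intronic summits lay far from the TSS, at +27759 bp (8.65), +30013 bp (4.16), +32898 bp (13.4) and +37019 bp (5.18). The summit at +32898 bp thus exceeded the one at the promoter. A last intronic summit at +55679 bp scored 1.54 and was nearest to Fbxo22, and Tmem266 took 2 with 2.53 and 3.32. Of genes with 1 other in the locus, 6.78% had at least the 8 summits of Nrg4. Of the ERBB receptors, Erbb4 had 2 locus summits, both nearest to it, and Erbb3 had 6, all nearest to other genes. Neither had one at the promoter, and Erbb2 had a promoter score of 3.32.

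Bmp8b (chr4:123105161-123126094, plus strand), which encodes a ligand that raises the response of brown fat to noradrenaline, had no promoter summit under the 1 kb rule but a pair just downstream of it. These intronic summits scored 3.32 at +1280 bp and 9.78 at +1936 bp. The last summit, at +34650 bp, scored 20.5 and lay 140 bp past the TSS of Ppie, a neighbour. As at Gdf15, the nearer summits fell outside the promoter window. Of genes with 2 others in the locus, 44.7% had at least the 3 summits of Bmp8b. The BMP receptor genes Bmpr1a, Bmpr1b and Bmpr2 had 2, 1 and 1 locus summits and none at a promoter. The 2 at Bmpr1a were nearest to other genes, and those of Bmpr1b and Bmpr2 to the gene itself. Of the activin receptor genes, which belong to the same receptor family, Acvr1c and Acvr2a had promoter scores of 4.16 and 2.92, and Acvr2b had none at its promoter.

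Il6 and Igf1 had 1 summit each, with the same low score of 3.32. That of Il6 (chr5:30013114-30019975, plus strand) lay at +221 bp in an intron, and 92.4% of genes with a promoter summit scored as high. That of Igf1 (chr10:87858265-87937047, plus strand) lay in an intron at +45404 bp from the nearest of 3 TSSs. In both cases 57.7% of genes with no other gene in the locus had as many. Of the IL6 receptor genes, Il6ra had a promoter score of 13.1 and Il6st, the shared signalling subunit, 18.8. Igf1r, the receptor gene for IGF1, had 5 locus summits with none at the promoter. Insr, which encodes the insulin receptor, had a promoter score of 32.5.

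Slit2 (chr5:47983155-48307735, plus strand) had no summit in a locus of 375 kb. The nearest one lay beyond the end of the gene, at +389148 bp from the TSS, and scored 6.02. An empty locus of that length was not rare, since 112 of 465 genes with a locus as long (24.1%) had none. Of the 5791 genes with no other gene in the locus, 42.3% had none. At an unknown depth, a locus without a summit shows that no peak passed the authors' cutoff, not that the chromatin was closed. Among the ROBO receptors, Robo1 and Robo4 had promoter scores of 2.15 and 2.09, and Robo2 and Robo3 had locus summits only. Robo2 had 2, both nearest to it, and Robo3 had 4, 3 of them nearest to it.

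The edge of the 50 kb window fell between summits at several loci. Just inside it were a summit at +49544 bp from Fgf21 (4.16), one at -49485 bp from Nrg4 (3.32) and one at +47565 bp from Gdf15 (4.04). Just outside were summits at +50577 bp from Gdf15 (1.91) and +53324 bp from Fgf21 (5.29), followed by -60124 bp from Bmp8b (3.32). At the other 7 genes the next summit outside was farther off, from +74598 bp at Nrg4 to +389148 bp at Slit2.

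**Figure D3:**
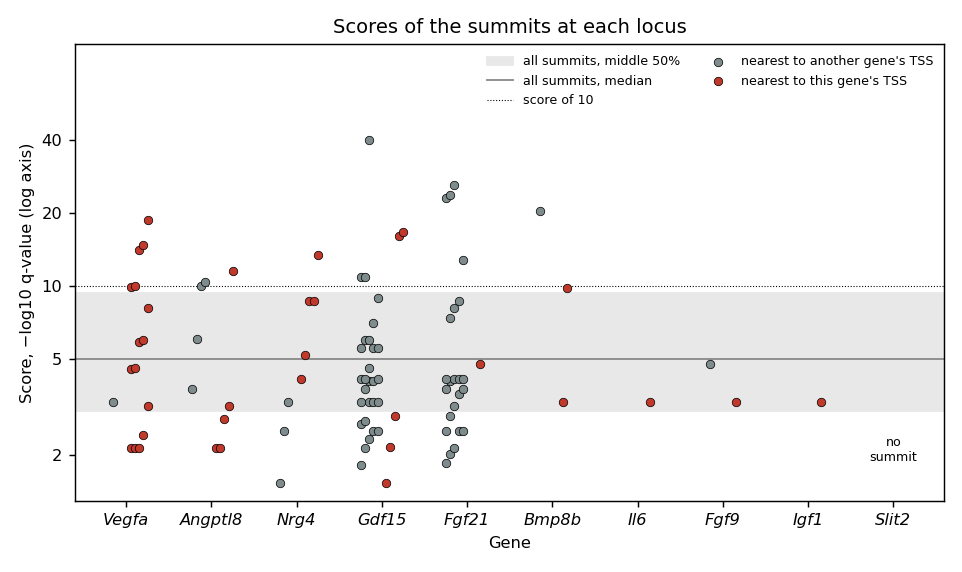
Score (vertical axis, −log10 q-value, log axis) of each of the 97 summits by gene, in red where the summit is nearest to the gene itself and in grey where it is nearest to a neighbour. The band is the middle 50% of all 32173 summits, the solid line their median of 5.0 and the dotted line a score of 10, and the highest points at Gdf15, Fgf21 and Bmp8b are grey.

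Over the 97 summits the median score was 4.16, with quartiles of 2.92 and 8.12 and a 95% interval of the median from order statistics of 3.32 to 4.75, which covers the choice of summits only. All 32173 summits had a median of 5.0 and quartiles of 3.05 and 9.39. Scores of 10 or more were held by 17 of the 97 summits (17.5%, Wilson interval 11.2% to 26.3%) and by 23.5% of the whole list. Of the 36 summits nearest to a member TSS, 7 reached it. These were 3 at Vegfa, 2 at Gdf15 and 1 each at Nrg4 and Angptl8. Their median was 4.58 and their highest score 18.8, beside a median of 4.04 and a highest score of 40.1 for the 61 nearest to a neighbour.

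Of the 97 summits, 51 (52.6%) lay in introns beside 40.6% of the list, and 27 (27.8%) between genes beside 42.8%. The rule itself lowers the share between genes, since summits of the list that lie far from every gene cannot enter, and of the 36 nearest to a member TSS 38.9% lay between genes. Exons held 19 (19.6%) beside 16.6%, and 18 of these 19 belonged to the summits nearest to a neighbour. Within 1 kb of any TSS there were 23 (23.7%, Wilson interval 16.4% to 33.1%), beside 32.2% of all summits. Masked repeats held 6 (6.19%) beside 12.9%, and the median GC content within 100 bp of a summit was 56.2% in both. None of these differences was tested, since summits at a locus share their surroundings.

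Promoters rich in CpG are open in most tissues, so the base composition of each promoter was set beside its summit. The observed to expected CpG ratio, in 250 bp before to 50 bp after a TSS, ran from 0.214 at Il6 to 0.900 at Slit2. For a gene with several TSSs the highest ratio was taken, which need not belong to the TSS near the summit. Over the 16839 genes with such a sequence, the share with a promoter summit rose from 4.84% at a ratio below 0.2 to 79.6% at 1 or above. In the class from 0.2 to 0.4, where 14.3% of genes had a promoter summit, 3 of the 5 members had one, namely Il6 (0.214), Angptl8 (0.318) and Fgf21 (0.361), and Gdf15 (0.300) and Igf1 (0.307) did not. Of these 3, only Angptl8 kept its promoter summit with a window from 1 kb upstream to 100 bp downstream or with a score of at least 5. Vegfa (0.563) had one in a class with 40.04%, and Nrg4 (0.667) had one and Bmp8b (0.729) none in a class with 66.1%. Fgf9 (0.880) had one and Slit2 none in a class with 76.7%. The members without a promoter summit therefore included both CpG-poor and CpG-rich promoters.

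**Figure D4:**
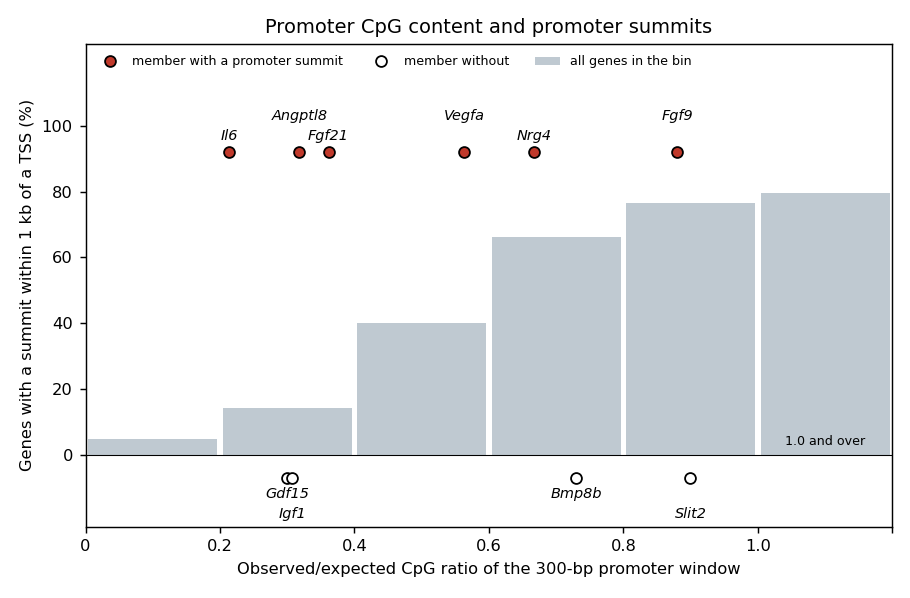
Share of genes with a promoter summit (vertical axis, percent of genes) by the observed to expected CpG ratio of the promoter (horizontal axis, ratio) over 16839 genes, with the 10 genes placed by their own ratio above or below the bars, where their height has no meaning. Filled points above have a promoter summit (6 genes) and open points below have none (4 genes), and both kinds occur at low and at high ratios. A gene with several TSSs is placed by its highest ratio.

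The letters of 17 motifs were searched on both strands within 100 bp of each summit. The commonest at the 97 summits were CCAAT, in 25 (25.8%, beside 24.9% of all summits), TGACG, in 19 (19.6% beside 14.8%), and ACGTG, in 19 (19.6% beside 14.0%). With 50 bp on each side ACGTG was at 7.22% beside 7.39%, and CCAAT at 14.4% beside 14.6%, both then below the list, while TGACG stayed above it at 9.28% beside 8.20%. Among the 36 summits nearest to a member TSS, TGACG was in 3 (8.33%) and ACGTG in 5 (13.9%), neither above the list. The E-box CACGTG, which contains ACGTG and so is counted in both, was in 7 (7.22% beside 4.68%), and none of those 7 was nearest to a member TSS. The C/EBP letters TTGCNNAA were in 6 (6.19% beside 10.9%, and 5.15% beside 5.77% with 50 bp on each side), and all 6 were nearest to a member: Angptl8 -71 bp, Bmp8b +1936 bp, Nrg4 +27759 bp and +37019 bp, and Vegfa +988 bp and +3382 bp. That was 16.7% of the 36, beside 5.56% of all summits within 1 kb of a TSS and 13.4% of those farther away. With 200 bp on each side the C/EBP letters were at 9.28% of the 97 beside 17.0% of the list. The C/EBP-ATF composite letters (TGATGNAA or TTGCATCA) were in 4 (4.12% beside 2.12%), but with 50 bp on each side they were at 1.03% beside 1.06%, and with 200 bp at 4.12% beside 3.79%. The AP-1 letters were in 6 (6.19% beside 6.40%).

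Letters common at CpG-rich promoters depended on the distance to a TSS. GGGCGG of the SP and KLF factors was in 9 of the 97 (9.28%) beside 20.6% of all summits, 45.0% of those within 1 kb of a TSS and 9.07% of those farther away. Weighted to the mix of near and far summits among the 97, the share in the list was 17.6%. None of the 36 nearest to a member held GGGCGG, which allows a share of up to 8.33%. The ETS letters CCGGAAG were in 0 of 97, which allows up to 3.09%, beside 5.38% of all summits and 2.37% of those farther than 1 kb from a TSS. With 200 bp on each side of a summit, GGGCGG was at 22.7% of the 97 beside 31.6% of the list, and CCGGAAG at 5.15% beside 9.09%. The DR1 (AGGTCANAGGTCA), ERR (TCAAGGTCA), NF-kB (GGGANTTTCC), CTCF (CCACNAGNNGGCAG) and NFI (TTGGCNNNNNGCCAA) letters were also in 0 of 97, but each was in under 1% of all summits, so that a count of 0 says little about them. The full CRE TGACGTCA, which holds TGACG, the EBF letters TCCCNNGGGA and the NRF1 letters GCGCNNGCGC were in 1 summit each.

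A pair of gene lists sets the members beside their own signalling partners and beside other proteins that fat secretes. Of 38 receptors, co-receptors and binding partners, 15 had a promoter summit (39.5%, Wilson interval 25.6% to 55.3%), 5 of them (13.2% of the list) scored 10 or more, and 33 (86.8%) had a locus summit. All genes stood at 45.2%, 23.5% and 72.5%. The highest promoter scores were those of Insr (32.5), Lpl (23.1) and Il6st (18.8), and Fgfr2, Fgfr4, Klb, Bmpr1a and Bmpr1b were among those without one. Of 38 other secreted adipose genes, 12 had a promoter summit (31.6%, 19.1% to 47.5%), 4 of them (10.5% of the list) scored 10 or more, and 25 (65.8%) had a locus summit, each below the share of all genes. Among the high promoter scores were those of Nampt (51.0), which encodes an enzyme of NAD synthesis that is also secreted, and Lgals3bp (19.4). Lep, the gene of the hormone leptin, Retn, Rbp4 and Fstl1 had none at the promoter, with 2, 8, 3 and 3 locus summits. Of these, 2, 1, 0 and 3 were nearest to the gene itself. The intervals of both lists overlap that of the members, and the highest member score at a promoter, 18.8 at Vegfa, was equal to that of Il6st.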

How the data were processed

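ATAC-seq libraries of BAT nuclei came from 2 WT and 2 Dot1L-BKO mice. Per the study's methods and the submitters' processing notes, the authors trimmed reads with cutadapt 1.2.1, mapped them by BWA, run from Partek Flow, on mm10, and ran MACS2 2.1.1 in its ATAC mode, keeping peaks at q-values up to 0.05 and enrichment of at least 2-fold. CASAVA and bcl2fastq 2.2 are also named there. Whether reads were shifted for the transposase, and how duplicate and mitochondrial reads were handled, is not given in the sources used here. The deposited list gives for each peak its summit and the −log10 of its q-value, here called the score. Since it is 1 list with no value per library, no test, replicate error or genotype comparison was made, and depth is unknown. RNA-seq libraries, 2 pooled samples for each genotype, are not used here.

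Summits were placed on curated RefSeq mRNAs of GRCm38, the same build, with 21000 genes and 25999 TSSs. Distances are from the nearest TSS of the gene, positive downstream. Named were all 10 member genes with their nearest and highest summits, neighbour genes, the 3 highest-scoring and up to 5 unmarked genes of each list, receptors beside their ligand, and Ucp1, except for some genes of the lists that are not reported here; other Vegfa, Nrg4, Angptl8 and Gdf15 summits were added to describe those loci in full. The members, gene lists, markers and motifs were chosen with earlier results of these data known. Wilson intervals are at 95%, and the limit for a count of 0 is 3 of the total. The counting was tested on simulated summits. Alternatives changed the score minimum, the merging of summits, the windows, the transcripts and the motif window. The software was Python 3.11.15 with pysam 0.24.0, scipy 1.17.1, numpy 2.4.6, matplotlib 3.10.9 and pandas 2.3.3.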

Additional observations from a re-analysis of the deposited data

How the results depend on the processing

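The score minimum and the width of the locus moved the counts most. With a score of at least 5, the summits at the 10 loci fell from 97 to 37, those nearest to a member TSS from 36 to 16, members with a promoter summit from 6 to 3, receptors and partners from 15 to 8 and other secreted genes from 12 to 7. With a score of at least 10 these were 17, 7, 2, 5 and 4. The loci held 49 summits with a window of 20 kb, 163 with 100 kb, 22 in gene bodies and 1 kb upstream, and 36 when each summit was given only to the gene of its nearest TSS. The median score was 5.53 in gene bodies and 1 kb upstream, beside 4.16. With a promoter from 1 kb upstream to 100 bp downstream, 6 receptors and partners had a promoter summit. Of 17 motifs, 6 had a higher share at the member loci than in the whole list, and 3 did with 50 bp on each side. The other 24 recomputed counts and medians moved less, counts by at most 1.5 times and medians within the interval of the reported value. Of the shares of single motifs, 12 moved outside the Wilson interval of the reported share and 39 did not. For 17 of these 39 the setting changed only the comparison share, so the share at the 97 summits could not move. Calls of named genes still ended among them. Members with a locus summit fell from 9 to 6 with a score of at least 5, where Il6, Igf1 and Fgf9 lost theirs. Members with a promoter summit fell from 6 to 4 within 500 bp, where Fgf21 and Fgf9 lost theirs, and also to 4 where the window reached only 100 bp downstream of a TSS, which took those of Fgf21 and Il6. They rose to 8 within 5 kb, with Bmp8b and Gdf15 added.

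Fits without each replicate in turn were not run, as the summits carry no values per library. No paired analysis was possible because every peak has 1 value for all libraries together and no result comes from a test. Depth is unknown, so a gene without a summit is one with no peak past the authors' cutoff.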
